A study of Mus musculus with 11 samples.

Results

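The genes described here encode the enzymes that break down the branched-chain amino acids leucine, isoleucine and valine. They are the 57 genes, of 18804 in the deposited table, whose KEGG annotation holds the term for valine, leucine and isoleucine degradation. No measured value enters that rule. The term was singled out with earlier results from these libraries known, so its counts are given as a description and are read beside the same counts over all genes. RNA was sequenced from synovial membrane, the joint lining, of mice of the inbred strain DBA/1, in which collagen-induced arthritis (CIA) can be raised. In this model an immune response to type II collagen inflames the joints. Sham mice were the controls. The 11 libraries were high-fat CIA (n = 3), high-fat sham (n = 2), regular-diet CIA (n = 3) and regular-diet sham (n = 3). No transgene or mutant allele is given for any group. Sex, age, length of feeding, and whether libraries came from single or pooled mice are not given in the sources used here. A growth note of regular feeding stands with each of the 11 samples, also with the 5 whose treatment label is a high-fat diet, so every diet comparison rests on the treatment labels. The study asked whether obesity influences arthritis.

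Branched-chain amino acids are first transaminated to keto acids. The branched-chain keto acid dehydrogenase complex of mitochondria then commits the keto acids to oxidation. Leucine carbon ends as acetyl-CoA and acetoacetate, valine carbon as propionyl-CoA, and isoleucine carbon as acetyl-CoA and propionyl-CoA, which enters the citrate cycle as succinyl-CoA. Skeletal muscle, liver and adipose tissue are known sites of this pathway, and fat cells draw on it for acetyl-CoA as they mature. The KEGG term also holds enzymes that work mainly on fatty acids, ketone bodies and aldehydes: 19 of the 57 genes carry the KEGG term for fatty acid degradation too, and 46 have a mitochondrial gene ontology term.

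Of the 57 genes, 51 had enough counts to be tested. The other 6, Aox2, Aox4, Oxct2a, Oxct2b, Agxt2 and Lao1, had at most 0.422 CPM (the usual counts-per-million unit, on totals scaled for library composition) in any library. Libraries held 13677631 to 17631176 counts. The 57 genes took 0.236%, 0.352% and 0.314% of all counts in the 3 high-fat CIA libraries, against 0.642% and 0.661% in the 2 high-fat sham libraries. They took 0.753%, 0.374% and 0.867% in regular-diet CIA, against 0.782%, 0.859% and 0.876% in regular-diet sham. The 3 high-fat CIA libraries and regular-diet CIA replicate b therefore lay together, below the other 7. Values are listed throughout in the order of the replicate letters a, b and c.

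On the high-fat diet, 20 of the 51 tested genes were lower in CIA than in sham and 0 were higher, at an adjusted p under 0.05. The p-values come from edgeR's quasi-likelihood test over 14892 genes, with Benjamini-Hochberg adjustment over all of them. In the same comparison 5.75% of all tested genes were called lower and 5.06% higher. The 20 genes include the mitochondrial transaminase Bcat2 and both subunits of the keto acid decarboxylase (Bckdha and Bckdhb). They also include the leucine genes Ivd, Mccc1, Mccc2 and Auh, the propionate enzymes Pccb and Mcee, and Acsf3. The median log2 fold change of the 51 genes was -1.05, against 0.02 for all tested genes, and 44 of the 51 values were below 0. In 39 of the 51 genes every high-fat CIA library was below both high-fat sham libraries, while 27.7% of all tested genes showed that separation.

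The calls lay close to the threshold and rested on few libraries. Without high-fat sham replicate a, or without replicate b, 0 of the 51 genes were called, and 0 of all 14892 genes. Leaving out high-fat CIA library a gave 6 calls, library b 2 and library c 8, of which 1 was higher. Over all genes these fits called 1043, 355 and 1071, where the fit of all libraries called 1610. Leaving out regular-diet CIA library b gave 33 calls among the 51 and 3734 over all genes, so both counts were larger. Leaving out regular-diet CIA library a gave 6 and 792. Without regular-diet CIA library c, 17 of the 20 calls held, and 1428 genes were called over all. The regular-diet sham libraries gave 6 calls without a, 5 without b and 5 without c, with 1129, 530 and 620 over all genes. The median log2 fold change of the 51 genes ranged from -1.09 to -0.91 over these fits. At an unadjusted p under 0.05, 32 of the 51 genes were lower and 3 higher, against 15.1% of all tested genes lower and 15.7% higher. DESeq2 called 28 of the 51 lower and 2 higher, and 10.1% of all tested genes lower and 12.3% higher. In the authors' deposited table, 29 of the 56 genes of the term with a q-value were lower and 2 higher in high-fat CIA at a q-value under 0.05, and 8.55% of all genes with a q-value were lower and 11.1% higher. In bulk tissue, fewer cells of a type and less RNA per cell cannot be told apart.

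**Figure D1:**
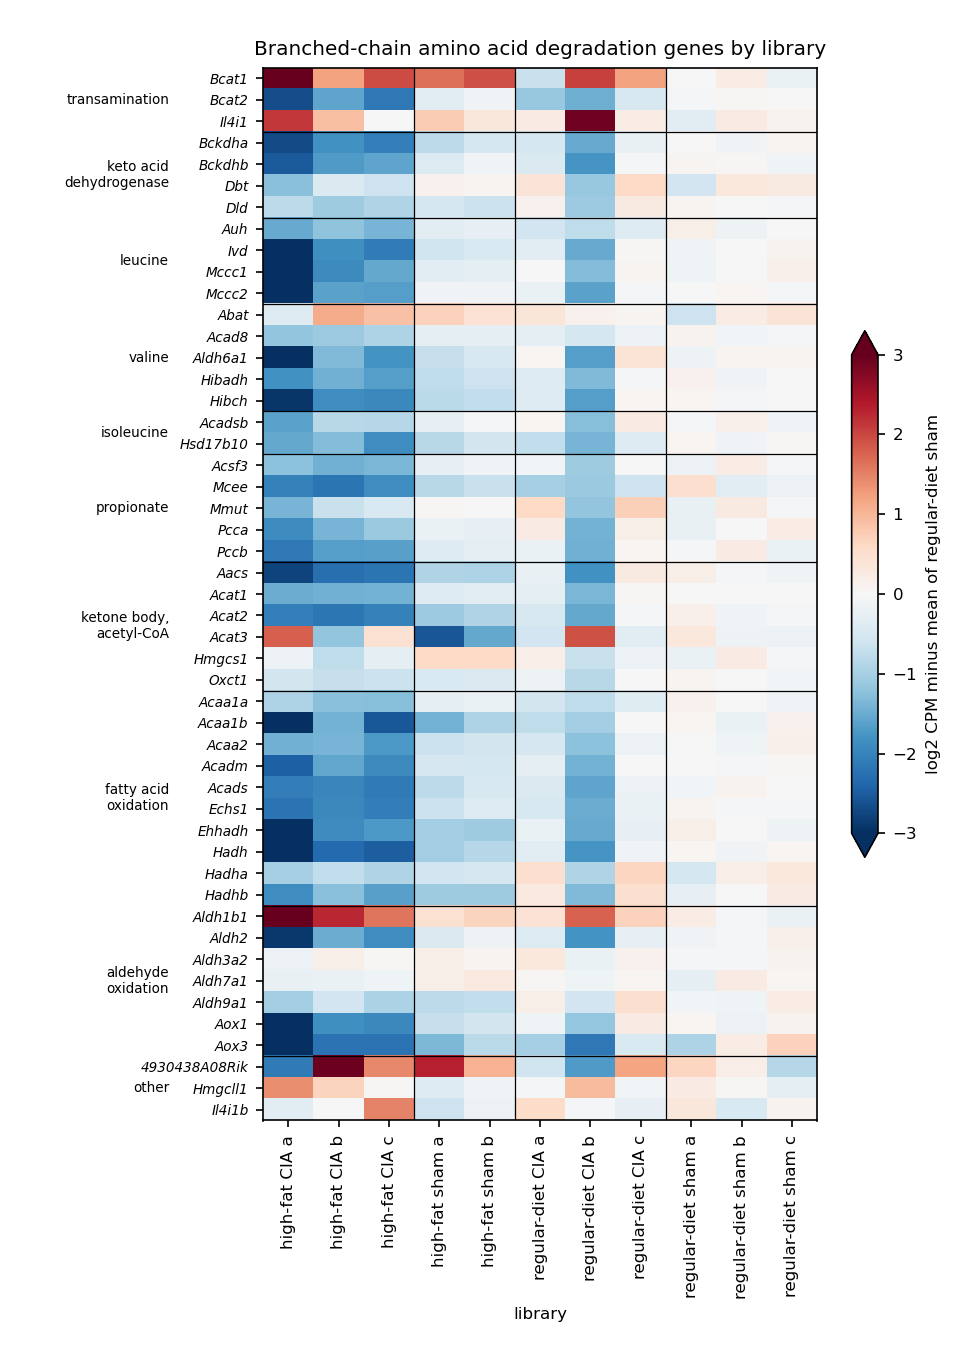
Colour gives log2 CPM of 49 of the 51 tested genes (down the page, grouped by role) in each of the 11 libraries (across) minus that gene's mean in regular-diet sham, with colours saturated at a difference of 3 either way. The 3 high-fat CIA libraries and regular-diet CIA replicate b are blue for most genes, with median differences over the 51 genes of -1.82, -1.32, -1.54 and -1.28.

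Ivd, Mccc1 and Mccc2 encode the enzymes of consecutive steps of the leucine branch and were all called lower in high-fat CIA, so their promoters are shown. Sequences are from RefSeq on GRCm38.p6, from 250 bases before to 50 bases after the transcription start, read 5′ to 3′ on the gene's strand. Capitals mark matches, on either strand, to the CCAAT box (CCAAT), the GC box (GGGCGG) or the E-box (CACGTG). The window of Ivd, isovaleryl-CoA dehydrogenase, is chr2:118861744-118862043 on the plus strand. That of Mccc1, the biotin-carrying alpha subunit of methylcrotonyl-CoA carboxylase, is chr3:36000629-36000928 on the minus strand. That of Mccc2, the beta subunit of that carboxylase, is chr13:100015590-100015889 on the minus strand.
Ivd: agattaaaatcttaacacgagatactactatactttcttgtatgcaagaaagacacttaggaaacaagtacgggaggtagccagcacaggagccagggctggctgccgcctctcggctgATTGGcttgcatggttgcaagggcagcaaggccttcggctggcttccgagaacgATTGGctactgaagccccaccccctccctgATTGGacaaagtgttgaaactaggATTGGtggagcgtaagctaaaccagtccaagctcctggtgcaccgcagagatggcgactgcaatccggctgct
Mccc1: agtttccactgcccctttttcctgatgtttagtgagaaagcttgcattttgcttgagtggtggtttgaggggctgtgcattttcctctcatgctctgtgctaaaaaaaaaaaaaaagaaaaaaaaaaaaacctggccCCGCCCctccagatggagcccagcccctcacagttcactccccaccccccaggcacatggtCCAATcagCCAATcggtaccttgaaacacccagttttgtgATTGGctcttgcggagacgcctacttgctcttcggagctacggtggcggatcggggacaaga
Mccc2: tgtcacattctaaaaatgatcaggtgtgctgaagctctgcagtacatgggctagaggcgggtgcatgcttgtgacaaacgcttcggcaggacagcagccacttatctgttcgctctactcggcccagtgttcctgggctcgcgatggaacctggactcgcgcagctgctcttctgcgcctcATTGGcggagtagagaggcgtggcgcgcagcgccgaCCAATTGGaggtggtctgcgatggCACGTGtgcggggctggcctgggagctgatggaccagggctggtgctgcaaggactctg

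Ivd held 4 matches to the CCAAT box, all on the reverse strand. Mccc1 held 3, with a GC box, and Mccc2 held 3, with an E-box; a pair of the Mccc2 matches overlap each other on opposite strands. Auh, of a later step of the leucine branch, held 0. RefSeq promoters were found for 47 of the 57 genes, 6 of them with several promoters. The CCAAT box matched in 24 of the 47 (51.1%), against 42.5% of the 14713 genes of the table with a promoter. At least 3 CCAAT matches stood in 7 of the 47 (14.9%), namely Ivd, Mccc1, Mccc2, Aldh6a1, Hmgcs1, Acaa1a and Acaa1b, where 736 of the 14713 did; this count was chosen after the matches were seen. The GC box matched in 51.1% of the 47 against 57.3% of all, the E-box in 6.38% against 10.1%, and the TATA box (TATAAA) in 6.38% against 11.4%. The nuclear receptor motif AGGTCA matched in 21.3% against 16.5%. The estrogen-related receptor element (TCAAGGTCA, which contains that motif) matched in 0 of the 47 and in 0.360% of all. A match is a string of letters and was not tested for binding.

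The entry step uses a pair of transaminases, of which Bcat2 was called lower in high-fat CIA and Bcat1 was not called. Bcat2, the mitochondrial enzyme, had 46.8, 99.6 and 67.5 CPM in high-fat CIA, against 234 and 275 CPM in high-fat sham. All 3 CIA libraries lay below both sham libraries, a 3.57-fold lower level (log2 fold change -1.84 ± 0.34, adjusted p = 0.0194). On the regular diet Bcat2 had 135, 108 and 212 CPM in regular-diet CIA and 286, 304 and 302 CPM in regular-diet sham. In CPM these groups again did not overlap, but the change was not called (-0.97 ± 0.31, adjusted p = 0.194). Bcat1, the cytosolic enzyme, had 51.5, 8.14 and 13.9 CPM in high-fat CIA, against 11.1 and 13.5 CPM in high-fat sham. These groups overlapped, replicate a of high-fat CIA stood far above the rest, and the difference was not called (0.99 ± 0.82, adjusted p = 0.433). Bcat1 had 2.15, 14.8 and 8.16 CPM in regular-diet CIA and 3.42, 4.06 and 3.02 CPM in regular-diet sham, so both high-fat sham libraries were above all 3 regular-diet sham libraries, though this was not called either (1.81 ± 0.80, adjusted p = 0.622). On the length-scaled values of the authors (TPM), the level of Bcat2 was 4.55, 63.0 and 24.4 times that of Bcat1 in high-fat CIA, against 108 and 106 times in high-fat sham. The ratio was 325, 36.6 and 137 in regular-diet CIA, against 426, 383 and 516 in regular-diet sham. Il4i1, a secreted amino acid oxidase of immune cells, had 7.62, 3.19 and 1.62 CPM in high-fat CIA, against 2.88 and 2.10 CPM in high-fat sham, with overlap. Its highest value was in regular-diet CIA replicate b, with 1.96, 13.3 and 1.93 CPM in regular-diet CIA and 1.27, 1.97 and 1.77 CPM in regular-diet sham. Counts of Il4i1 and of the gene listed as Il4i1b may be split between near-identical copies and are uncertain.

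Of the 4 genes of the keto acid dehydrogenase complex, 2 were called lower in high-fat CIA. Bckdha, the alpha subunit of the decarboxylase, had 40.4, 74.2 and 62.6 CPM in high-fat CIA, against 152 and 181 CPM in high-fat sham (-1.50 ± 0.35, adjusted p = 0.0319). Bckdhb, its beta subunit, had 18.6, 33.1 and 35.7 CPM in high-fat CIA, against 81.3 and 99.3 CPM in high-fat sham (-1.63 ± 0.42, adjusted p = 0.0388). Neither overlapped between the groups. Bckdha had 179.7, 90.8 and 222 CPM in regular-diet CIA and 261, 243 and 276 CPM in regular-diet sham, and Bckdhb had 79.4, 31.5 and 103 CPM in regular-diet CIA and 113, 110.4 and 99.3 CPM in regular-diet sham. Regular-diet CIA replicate b was the lowest of these 6 libraries for both genes. Dbt, the acyltransferase core, had 24.4, 43.3 and 38.3 CPM in high-fat CIA, against 64.4 and 61.8 CPM in high-fat sham. The groups did not overlap, but the change was not called (-0.84 ± 0.45, adjusted p = 0.238). Dld, the lipoamide dehydrogenase that this complex shares with pyruvate dehydrogenase, was not called either (-0.34 ± 0.33, adjusted p = 0.509). The complex is switched off by the kinase Bckdk and switched on by the phosphatase Ppm1k, which are not in the KEGG term. Bckdk had 54.8, 45.0 and 47.8 CPM in high-fat CIA, against 78.4 and 88.2 CPM in high-fat sham, and was called lower (-0.76 ± 0.20, adjusted p = 0.0438). Ppm1k had 12.6, 19.8 and 16.5 CPM in high-fat CIA, against 24.7 and 27.8 CPM in high-fat sham, and was not called (-0.69 ± 0.32, adjusted p = 0.173).

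The leucine genes Ivd, Mccc1, Mccc2 and Auh were called lower in high-fat CIA, and in each of these 4 the 3 CIA libraries lay below both sham libraries. Ivd, which removes hydrogen from isovaleryl-CoA, had 29.3, 73.5 and 61.8 CPM in high-fat CIA, against 176 and 193 CPM in high-fat sham (-1.75 ± 0.44, adjusted p = 0.0372), a 3.36-fold lower level. Mccc1, whose promoter with a run of CCAAT matches is printed above, had 18.6, 44.5 and 57.9 CPM in high-fat CIA, against 133 and 141 CPM in high-fat sham (-1.76 ± 0.46, adjusted p = 0.0409). Mccc2 had 11.5, 34.0 and 32.7 CPM in high-fat CIA, against 96.6 and 96.6 CPM in high-fat sham (-1.89 ± 0.48, adjusted p = 0.0380), and at 3.70-fold it had the largest decrease of the 20 called genes. For all 3 of these genes high-fat CIA replicate a was the lowest of the 11 libraries. Auh, which hydrates methylglutaconyl-CoA, had 31.5, 38.7 and 34.2 CPM in high-fat CIA, against 70.7 and 75.9 CPM in high-fat sham (-1.07 ± 0.17, adjusted p = 0.0185), a 2.11-fold lower level.

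In regular-diet mice these 4 genes gave 0 calls. Ivd had 214, 92.7 and 273 CPM in regular-diet CIA and 245, 267 and 284 CPM in regular-diet sham. Mccc1 had 167, 69.0 and 179 CPM in regular-diet CIA and 154, 167 and 188 CPM in regular-diet sham, and Mccc2 had 89.9, 34.2 and 101 CPM in regular-diet CIA and 105, 107 and 99.1 CPM in regular-diet sham. For these 3 genes CIA replicate b was far below the other regular-diet libraries, while replicates a and c were within or near the sham range. Auh had 60.3, 52.7 and 69.1 CPM in regular-diet CIA and 101, 81.3 and 89.0 CPM in regular-diet sham (-0.57 ± 0.15, adjusted p = 0.180). Its groups did not overlap in CPM but did in TPM (98.6, 72.1 and 108 against 104, 110 and 121).

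**Figure D2:**
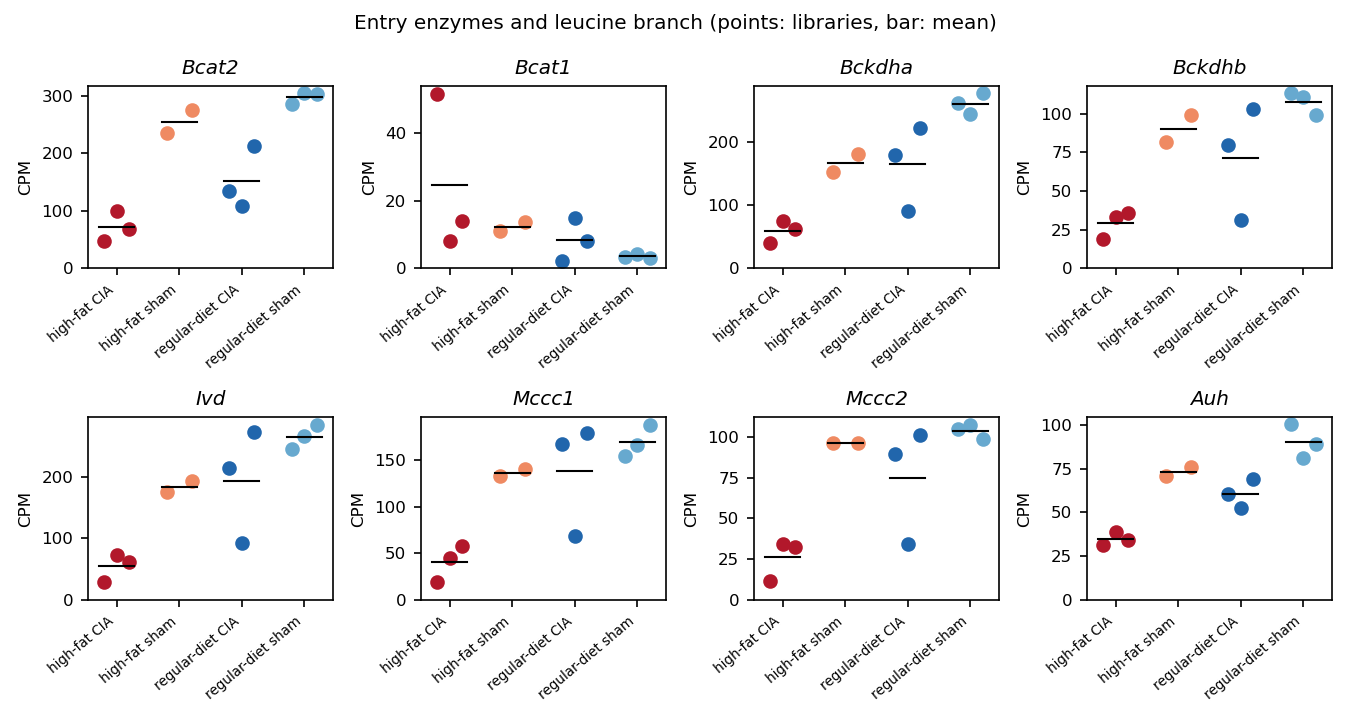
CPM (y axis, linear from 0) of the transaminases Bcat2 and Bcat1, the decarboxylase subunits Bckdha and Bckdhb and the leucine genes Ivd, Mccc1, Mccc2 and Auh. Points are libraries in the 4 groups and bars are group means. Except for Bcat1, the 3 high-fat CIA points lie below both high-fat sham points, and in the regular-diet CIA group 1 point, replicate b, lies below the other 2.

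In the valine branch 1 of 5 tested genes was called lower in high-fat CIA. Acad8, isobutyryl-CoA dehydrogenase, had 28.1, 29.8 and 33.3 CPM in high-fat CIA, against 51.5 and 51.6 CPM in high-fat sham (-0.76 ± 0.16, adjusted p = 0.0235). Hibch, the hydrolase that frees hydroxyisobutyrate, had 20.3, 42.1 and 39.9 CPM in high-fat CIA, against 87.3 and 91.6 CPM in high-fat sham, and missed the threshold (-1.39 ± 0.43, adjusted p = 0.0626). Hibadh, the next dehydrogenase, had 67.2, 87.3 and 75.1 CPM in high-fat CIA, against 139 and 156 CPM in high-fat sham (-0.95 ± 0.31, adjusted p = 0.0726). Neither gene overlapped between the groups. Aldh6a1, methylmalonate semialdehyde dehydrogenase, spread widely within high-fat CIA, with 35.4, 210.2 and 152 CPM in high-fat CIA, against 323 and 375 CPM in high-fat sham, and was not called (-1.40 ± 0.66, adjusted p = 0.183). Regular-diet CIA gave 0 calls among the valine genes. Acad8 had 51.5, 44.1 and 56.4 CPM in regular-diet CIA and 68.2, 60.5 and 62.1 CPM in regular-diet sham, Hibch had 118, 48.6 and 160.3 CPM in regular-diet CIA and 159.6, 148 and 154 CPM in regular-diet sham, and Hibadh had 183, 94.3 and 230.2 CPM in regular-diet CIA and 259, 222 and 234 CPM in regular-diet sham. Aldh6a1 had 544, 168 and 696 CPM in regular-diet CIA and 473, 551 and 552 CPM in regular-diet sham, so CIA replicates a and c were at or above the sham level and replicate b was below it. Abat, better known as the transaminase of the neurotransmitter GABA, had 4.31, 12.4 and 10.4 CPM in high-fat CIA, against 9.24 and 7.71 CPM in high-fat sham, with overlap and no call (0.10 ± 0.44, adjusted p = 0.900). Abat had 7.32, 6.15 and 6.04 CPM in regular-diet CIA and 3.66, 6.66 and 7.41 CPM in regular-diet sham.

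Neither of the 2 isoleucine genes was called. Acadsb, the short and branched-chain acyl-CoA dehydrogenase, had 71.8, 122 and 119.8 CPM in high-fat CIA, against 183 and 208 CPM in high-fat sham (-0.90 ± 0.39, adjusted p = 0.150). In regular-diet mice Acadsb had 228, 89.4 and 260.2 CPM in regular-diet CIA and 212, 241 and 202 CPM in regular-diet sham. Hsd17b10, a mitochondrial hydroxyacyl-CoA dehydrogenase, was -0.85 ± 0.27, adjusted p = 0.0678 on the high-fat diet and -0.79 ± 0.25, adjusted p = 0.193 on the regular diet, as log2 fold changes of CIA over sham.

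Of the 5 genes grouped under the route from propionyl-CoA to succinyl-CoA, 3 were called lower in high-fat CIA. Pccb, the beta subunit of propionyl-CoA carboxylase, had 51.9, 72.8 and 74.5 CPM in high-fat CIA, against 175 and 192 CPM in high-fat sham (-1.47 ± 0.37, adjusted p = 0.0371). Mcee, methylmalonyl-CoA epimerase, had 6.87, 6.15 and 7.75 CPM in high-fat CIA, against 15.8 and 18.0 CPM in high-fat sham (-1.29 ± 0.28, adjusted p = 0.0263). Acsf3, grouped here though it is an acyl-CoA synthetase for malonate and methylmalonate, was also lower (-1.18 ± 0.28, adjusted p = 0.0331). Pcca, the alpha subunit that carries biotin, had 23.2, 32.7 and 39.9 CPM in high-fat CIA, against 75.5 and 72.7 CPM in high-fat sham, and was not called (-1.22 ± 0.41, adjusted p = 0.0793). Mmut, methylmalonyl-CoA mutase, had 41.7, 69.1 and 79.7 CPM in high-fat CIA, against 113 and 109 CPM in high-fat sham (-0.80 ± 0.46, adjusted p = 0.263). All 5 genes were without overlap on this diet. On the regular diet Pccb had 202, 84.2 and 239.9 CPM in regular-diet CIA and 224, 273 and 201 CPM in regular-diet sham, and Pcca had 102, 32.5 and 96.8 CPM in regular-diet CIA and 74.0, 86.1 and 101 CPM in regular-diet sham. Mcee had 14.3, 13.0 and 18.5 CPM in regular-diet CIA and 40.6, 22.4 and 25.2 CPM in regular-diet sham, with every CIA library below every sham library but no call (-0.94 ± 0.25, adjusted p = 0.180). Mmut had 168, 48.6 and 180.1 CPM in regular-diet CIA and 94.5, 132 and 107 CPM in regular-diet sham, with CIA replicates a and c above all sham libraries. Of the helpers outside the term, Mmab, which makes the cobalamin cofactor of the mutase, was lower in high-fat CIA (-0.88 ± 0.19, adjusted p = 0.0271), the only call among 7 genes of cobalamin supply. Btd, which recycles the biotin that both carboxylases need, was also lower (-0.85 ± 0.18, adjusted p = 0.0262), and Hlcs, which attaches biotin, was not called (-0.51 ± 0.37, adjusted p = 0.366).

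The term's genes shared with fatty acid oxidation gave 6 calls of 10, all lower in high-fat CIA. Hadh, which oxidises short and medium hydroxyacyl-CoA, had 43.1, 95.5 and 87.7 CPM in high-fat CIA, against 234 and 266 CPM in high-fat sham (-1.73 ± 0.45, adjusted p = 0.0409). Echs1, the short-chain enoyl-CoA hydratase used by valine, isoleucine and fatty acids alike, had 73.7, 89.3 and 81.0 CPM in high-fat CIA, against 220.4 and 258 CPM in high-fat sham (-1.56 ± 0.31, adjusted p = 0.0226). Acadm, the medium-chain acyl-CoA dehydrogenase, had 93.4, 175 and 137 CPM in high-fat CIA, against 365 and 359 CPM in high-fat sham (-1.42 ± 0.38, adjusted p = 0.0432). Acads, the short-chain dehydrogenase, had 46.9, 51.4 and 45.6 CPM in high-fat CIA, against 115 and 142 CPM in high-fat sham (-1.42 ± 0.33, adjusted p = 0.0307). None of these 4 genes overlapped between the groups. The thiolases Acaa2 of mitochondria (-0.92 ± 0.26, adjusted p = 0.0496) and Acaa1a of peroxisomes (-0.89 ± 0.18, adjusted p = 0.0224) completed the 6. Acaa1a may share reads with its near copy Acaa1b, so its own value is uncertain. Their summed TPM was 84.4, 93.9 and 84.7 in high-fat CIA, against 137 and 147 in high-fat sham. The long-chain trifunctional protein genes Hadha (-0.34 ± 0.41, adjusted p = 0.598) and Hadhb (-0.49 ± 0.44, adjusted p = 0.465) were not called. Among the 19 tested genes that also carry the fatty acid degradation term, 7 were called lower with a median log2 fold change of -0.92. Among the 32 without it, 13 were called lower, with a median of -1.06.

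Regular-diet CIA gave these genes 0 calls. Hadh had 390.0, 141 and 447 CPM in regular-diet CIA and 503, 448 and 503 CPM in regular-diet sham. Echs1 had 247, 123 and 297 CPM in regular-diet CIA and 366, 332 and 334 CPM in regular-diet sham. Acadm had 424, 191 and 509 CPM in regular-diet CIA and 512, 501 and 528 CPM in regular-diet sham, and Acads had 146, 66.3 and 177 CPM in regular-diet CIA and 188, 213 and 196 CPM in regular-diet sham. All 4 were lowest in CIA replicate b, and in each of them replicate c was the highest CIA library.

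At the ketone body and acetyl-CoA end, 1 of 6 genes described was called. Hmgcs1, the cytosolic synthase of the cholesterol route, was lower in high-fat CIA (-0.99 ± 0.27, adjusted p = 0.0437). Its high-fat sham level (194.6 to 195.8 CPM) was above that of regular-diet sham (111.6 to 153.8 CPM), though this was not called (0.59 ± 0.27, adjusted p = 0.652). Its high-fat CIA level (75.4 to 113.2 CPM) overlapped that of regular-diet CIA (81.3 to 147.7 CPM). Aacs, which activates acetoacetate for lipid synthesis, had 39.8, 56.5 and 60.1 CPM in high-fat CIA, against 147 and 143 CPM in high-fat sham (-1.48 ± 0.46, adjusted p = 0.0633), and 234, 77.1 and 330.1 CPM in regular-diet CIA and 311, 264 and 248 CPM in regular-diet sham. Acat2, the cytosolic thiolase, had 32.3, 29.7 and 32.5 CPM in high-fat CIA, against 62.5 and 71.2 CPM in high-fat sham (-1.08 ± 0.33, adjusted p = 0.0608), and 95.5, 46.2 and 131 CPM in regular-diet CIA and 148, 125 and 129.8 CPM in regular-diet sham. The mitochondrial thiolase Acat1 was close to the threshold (-1.08 ± 0.32, adjusted p = 0.0562). Oxct1, which lets tissues use ketone bodies, was not called (-0.18 ± 0.23, adjusted p = 0.620). Acat3, a near copy of Acat2 that may share its reads, ran the other way, with 46.3, 5.79 and 18.4 CPM in high-fat CIA, against 2.14 and 4.55 CPM in high-fat sham, and was not called (2.81 ± 0.99, adjusted p = 0.0894). The summed TPM of Acat2 and Acat3 was 76.1, 39.4 and 59.1 in high-fat CIA, against 59.7 and 68.4 in high-fat sham, and these overlapped.

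Of 7 tested aldehyde oxidising genes, 1 was called. Aldh2, the mitochondrial enzyme also known for clearing acetaldehyde, had 143, 376 and 292 CPM in high-fat CIA, against 789 and 948 CPM in high-fat sham (-1.68 ± 0.47, adjusted p = 0.0486), and 802, 306 and 899 CPM in regular-diet CIA and 988, 1028 and 1167 CPM in regular-diet sham. Aldh2 had the highest TPM of the 57 genes in high-fat CIA (197 ± 99.1, SD, n = 3), in high-fat sham (458 ± 35.3, SD, n = 2) and in regular-diet sham (467 ± 129, SD, n = 3). In regular-diet CIA, Hadhb was highest (500.3 ± 273, SD, n = 3). Aox1, the cytosolic aldehyde oxidase, had 10.5, 35.0 and 32.5 CPM in high-fat CIA, against 77.1 and 84.8 CPM in high-fat sham, just outside the threshold (-1.64 ± 0.48, adjusted p = 0.0546), and 114, 55.4 and 148 CPM in regular-diet CIA and 131, 110.4 and 134 CPM in regular-diet sham. Aldh3a2, which oxidises fatty aldehydes (-0.12 ± 0.18, adjusted p = 0.673), and Aldh7a1, which belongs to lysine breakdown (-0.41 ± 0.17, adjusted p = 0.142), were not called. Aldh1b1, a mitochondrial relative of Aldh2 at low counts, had 5.59, 2.35 and 1.44 CPM in high-fat CIA, against 0.588 and 0.701 CPM in high-fat sham. It was above sham in all 3 CIA libraries but was not called (2.27 ± 0.69, adjusted p = 0.0616). Aox3, Aldh9a1, Acaa1b, Ehhadh, Hmgcll1, Il4i1b and 4930438A08Rik gave 0 calls in this comparison.

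On the regular diet, 0 of the 51 genes were called in either direction between CIA and sham with edgeR, while 0% of all tested genes were called lower and 0.0269% higher. DESeq2 called 4 of the 51 genes lower and 0 higher, and 2.48% of all tested genes lower and 3.14% higher. At an unadjusted p under 0.05, 8 of the 51 were lower and 0 higher, against 7.33% of all tested genes lower and 9.99% higher. The median log2 fold change of the 51 genes was -0.36, against 0.06 for all tested genes. In 14 genes every CIA library was below every sham library in CPM, and 13.0% of all tested genes showed that separation. The separation depended on the scale. In TPM the genes of the term summed to 7140, 3034 and 8036.5 in regular-diet CIA, against 5155, 6802 and 6983 in regular-diet sham. Bcat2 overlapped in TPM (169, 122 and 251 against 221, 310 and 305), and so did Echs1 (378, 170 and 431 against 345, 413 and 412). Mcee did not (49.4, 40.5 and 60.6 against 88.0, 63.4 and 71.2). The median depended on single libraries of the CIA group: replicate b lay lowest, and without that library it was -0.11, while without replicate c it was -0.71. The authors' deposited table gave 0 genes of the term a q-value under 0.05 in this comparison, while 0.882% of all genes with a q-value were lower and 1.62% higher. The difference between the CIA effects on the 2 diets was tested as an interaction. It gave 0 calls among the 51 genes with edgeR and 0 with DESeq2, and 0% of all tested genes were called in either direction with edgeR. DESeq2 called 0.0806% of all tested genes lower and 0.0604% higher. At an unadjusted p under 0.05, 2.71% of all tested genes were lower and 1.55% higher in the interaction. Of the 51 genes 2 were lower and 0 higher, which is near that share and no result about the pathway. They were Mccc1 (-1.47 ± 0.62, adjusted p = 0.989) and Acsf3 (-0.86 ± 0.38, adjusted p = 0.989), named after their values were seen. The median of the 51 interaction values was -0.57, against -0.02 for all tested genes, and 46 were below 0. A larger effect of CIA on the high-fat diet was thus not called for any of these genes.

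**Figure D3:**
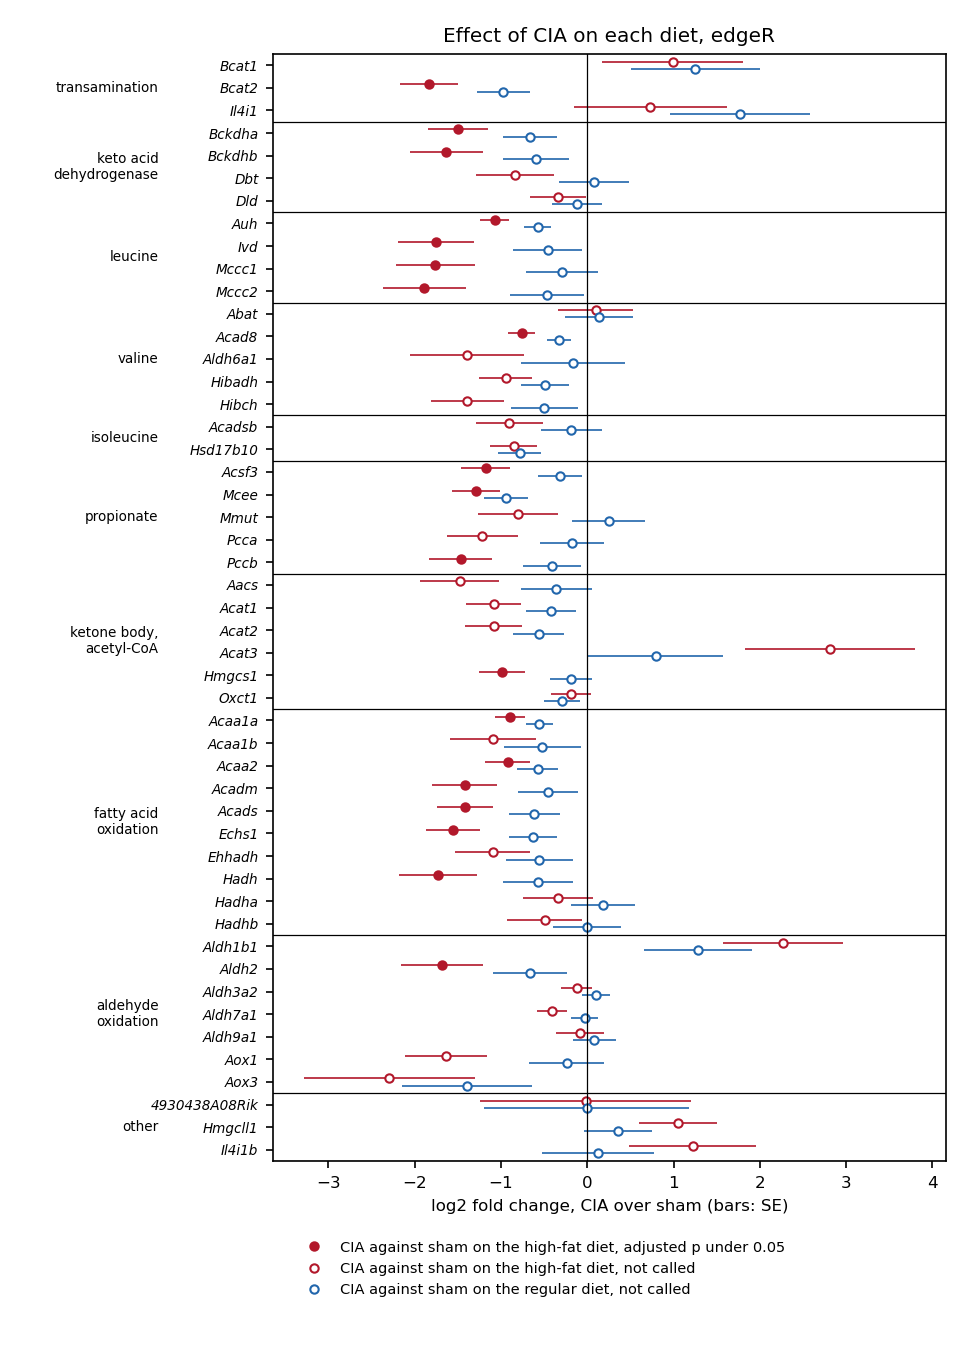
Log2 fold change of CIA over sham (x axis, bars are SE) for 49 of the 51 tested genes, grouped by role, on the high-fat diet (red) and on the regular diet (blue). Filled points are the 19 of these genes called at an adjusted p under 0.05, all on the high-fat diet and all below 0. The medians over the 51 genes are -1.05 on the high-fat diet and -0.36 on the regular diet.

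Between the diets in CIA mice, 14 of the 51 genes were lower on the high-fat diet and 0 higher, where 2.89% of all tested genes were called lower and 1.05% higher. The median log2 fold change of high-fat over regular-diet CIA was -1.06, against -0.03 for all tested genes. High-fat CIA libraries also serve in the comparison with high-fat sham, so the 2 sets of values are not independent. The 14 genes were Hadh (-2.11), Aacs (-2.04), Aox1 (-2.03), Ivd (-1.82), Mccc1 (-1.78), Hibch (-1.68), Acat2 (-1.53), Bckdha (-1.48), Acadm (-1.47), Echs1 (-1.45), Acads (-1.44), Mcee (-1.14), Auh (-0.80) and Acad8 (-0.74), with the log2 fold change in brackets and adjusted p-values of 0.0346 to 0.0497. In the leucine branch Ivd, Mccc1 and Auh were called, while Mccc2 was not (-1.53 ± 0.44, adjusted p = 0.0754). Bcat2 was not called (-1.09 ± 0.31, adjusted p = 0.0720). For 26 genes all high-fat CIA libraries were below all regular-diet CIA libraries, and 13.5% of all tested genes showed that separation. Regular-diet CIA replicate b was the library nearest to the high-fat CIA values. Without it 39 of the 51 genes were called and the median was -1.32, and over all genes 3221 were called, where the fit of all libraries called 588. Without any other library, and in a fit of the 2 compared groups alone, 0 of all tested genes were called, and so 0 of the 51. DESeq2 called 33 of the 51 lower and 0 higher, and 8.41% of all tested genes lower and 5.06% higher. The authors' deposited table had 13 of the 56 genes of the term with a q-value lower in high-fat CIA and 0 higher at a q-value under 0.05, and 2.34% of all genes with a q-value lower and 1.56% higher.

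Between the diets in sham mice, edgeR called 0 of the 51 genes, and 0% of all tested genes in either direction. DESeq2 also called 0 of the 51, and 0.604% of all tested genes lower and 0.208% higher. At an unadjusted p under 0.05, 7 of the 51 were lower and 1, Bcat1, was higher, against 4.74% of all tested genes lower and 3.08% higher. The median log2 fold change of high-fat over regular-diet sham was -0.40, against -0.01 for all tested genes. In 34 genes both high-fat sham libraries were below all 3 regular-diet sham libraries in CPM, and 22.1% of all tested genes showed that separation. It depended on the scale. The 57 genes summed to 6042 and 6592 CPM in high-fat sham, against 8502, 8777 and 9063 CPM in regular-diet sham. In TPM the sums overlapped, with 4985 and 5331 against 5155, 6802 and 6983. Ivd overlapped in TPM (87.9 and 94.2 against 85.7, 123 and 128), while Hadh did not (257 and 285 against 385, 453 and 502). The count depended on the fit. With the 2 sham groups alone 9 of the 51 genes were called, 8 lower and 1 higher, and over all genes 418 were called, 257 of them lower. The authors' deposited table had 22 of the 57 genes of the term lower and 2 higher at a q-value under 0.05, and 4.33% of all genes with a q-value lower and 3.47% higher.

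Genes outside the term that serve the pathway were described from lists also chosen with earlier results known. Of 6 transporters of branched-chain amino acids, 1 was called on the high-fat diet. Slc43a2, a carrier of the cell membrane, had 148, 134 and 104 CPM in high-fat CIA, against 50.8 and 56.2 CPM in high-fat sham, and was higher in CIA (1.26 ± 0.26, adjusted p = 0.0232). It had 65.8, 55.4 and 59.5 CPM in regular-diet CIA and 31.7, 57.7 and 42.6 CPM in regular-diet sham, and was also higher in high-fat than in regular-diet CIA (1.09 ± 0.22, adjusted p = 0.0356). Slc7a5, the large neutral amino acid transporter, had 53.1, 13.3 and 18.3 CPM in high-fat CIA, against 13.6 and 9.69 CPM in high-fat sham, with replicate a far above the rest and no call (1.28 ± 0.65, adjusted p = 0.209). Slc25a44, the mitochondrial carrier for branched-chain amino acids, had 36.6, 51.2 and 42.7 CPM in high-fat CIA, against 63.5 and 67.3 CPM in high-fat sham, and was not called (-0.59 ± 0.38, adjusted p = 0.323). Etfb, a subunit of the flavoprotein that takes electrons from Ivd, Acad8 and the other acyl-CoA dehydrogenases, had 92.2, 97.7 and 83.2 CPM in high-fat CIA, against 242 and 245 CPM in high-fat sham, and was lower (-1.42 ± 0.27, adjusted p = 0.0209). The other 2 genes of that electron chain were not called. Of 5 transcription factor and coactivator genes tied to the pathway, 1 was called. Pparg, the nuclear receptor of fat cell formation, had 26.5, 67.5 and 58.6 CPM in high-fat CIA, against 198 and 224 CPM in high-fat sham (-2.05 ± 0.47, adjusted p = 0.0309). The 3 genes that supply lipoate to the dehydrogenase complexes gave 0 calls. Between the diets in CIA mice, Etfb (-1.17 ± 0.25), the cobalamin genes Mmaa (-1.26 ± 0.24) and Mmab (-0.98 ± 0.18), the lipoate gene Lipt1 (-0.96 ± 0.21) and the nuclear receptors Ppara (-2.64 ± 0.58), Pparg (-1.97 ± 0.44) and Esrra (-0.84 ± 0.20) were called lower on the high-fat diet. Ppara, a regulator of fatty acid oxidation genes, had 1.45, 5.91 and 4.32 CPM in high-fat CIA, against 27.4, 9.55 and 35.9 CPM in regular-diet CIA. These groups did not overlap, and 13.5% of all tested genes were lower with that separation. Between the diets in CIA, 2.89% of all tested genes were called lower and 1.05% higher. Without any single library other than regular-diet CIA replicate b, 0 of all genes were called, so 0 of these helpers, Slc43a2 included.

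Markers of cell types went in both directions. In high-fat CIA against sham, the adipocyte, brown adipocyte and skeletal muscle lists had median log2 fold changes below 0, as the pathway did. Medians were above 0 for the macrophage and monocyte (1.18), neutrophil (2.62), synovial fibroblast (0.78) and chondrocyte (0.58) lists. Prg4, the lubricin gene of the synovial lining, had 3976 to 20707 CPM over the 11 libraries. This marker of the labelled tissue was therefore present in each. Other markers of the synovial fibroblast list were less even. Clic5 had 22.5 CPM in high-fat CIA replicate a and 33.04 CPM in regular-diet CIA replicate b, against 256 to 698 CPM elsewhere. Htra4 had 39.98 and 48.3 CPM in these libraries, against 219 to 729 CPM elsewhere. Of the list's 12 markers, 8 were above 0 and 4, including Prg4, Clic5 and Htra4, were below 0 in the high-fat CIA comparison. All 15 adipocyte markers were below 0 in the high-fat CIA comparison, 7 of them called lower, with a median log2 fold change of -2.02. Their summed level was 2179.6, 8316 and 7531 CPM in high-fat CIA, against 19864 and 24597 CPM in high-fat sham. It was 24770.0, 9784 and 32906 CPM in regular-diet CIA, against 46227, 35541 and 38823 CPM in regular-diet sham. Adipoq, the adiponectin gene, had 81.3, 415 and 380.0 CPM in high-fat CIA, against 1298 and 1545 CPM in high-fat sham. High-fat CIA replicate a was thus lowest in both the markers and the pathway genes, and regular-diet CIA replicate b lay with the other high-fat CIA libraries in both. With the mean adipocyte marker level as a covariate, 0 of the 51 genes were called in the high-fat CIA comparison and the median log2 fold change was -0.19. Over all genes 1345 were called in that fit. Pparg is itself on the marker list. The part of adipocytes in the pathway result was not tested.

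**Figure D4:**
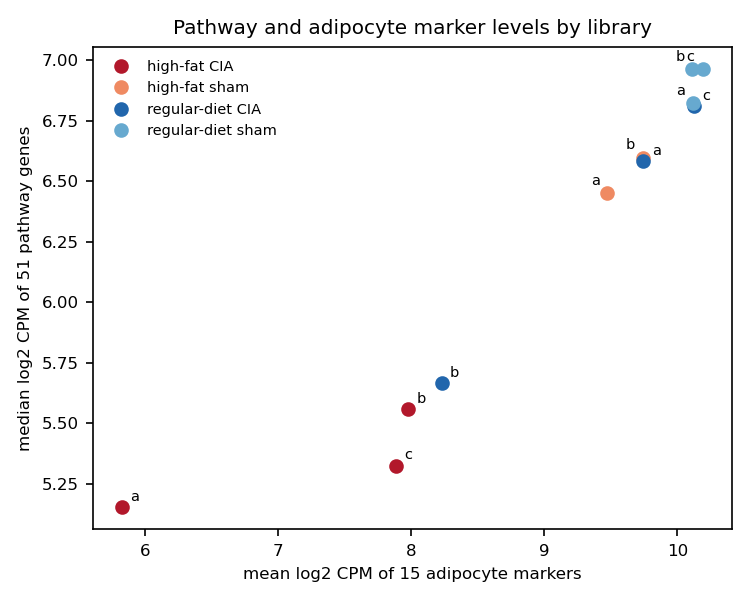
Each point is a library, labelled with its replicate letter and coloured by group. The x axis is the mean log2 CPM of 15 adipocyte markers and the y axis is the median log2 CPM of the 51 tested pathway genes. High-fat CIA libraries and regular-diet CIA replicate b lie at the lower left, with pathway medians of 5.15, 5.56, 5.32 and 5.67, and the other 7 libraries lie between 6.45 and 6.96.

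Summed macrophage and monocyte markers were 4056, 4762 and 3199 CPM in high-fat CIA, against 2199 and 1732 CPM in high-fat sham. Of these 12 markers 2 were called higher, Itgam (2.19 ± 0.47) and Ccr2 (2.74 ± 0.53). The 8 neutrophil markers gave 0 calls, with a summed level of 2356, 5432 and 909.8 CPM in high-fat CIA, against 1172 and 31.9 CPM in high-fat sham. The 12 synovial fibroblast markers summed to 35635, 31402 and 41721 CPM in high-fat CIA, against 26298 and 32872 CPM in high-fat sham, with 1 called higher. Their part in the pathway result was not tested. Skeletal muscle, another site of the pathway, was uneven. Its 15 markers summed to 1233 CPM in regular-diet sham replicate c and to 26.2 to 285 CPM in the other 10 libraries. The low sums were mostly Des, with 43.5 of 51.5 CPM in regular-diet sham replicate a and 20.7 of 26.2 CPM in high-fat CIA replicate b. Acta1 had 0.954 and 0.301 CPM in these libraries. On the high-fat diet the sum was 40.04, 26.2 and 74.3 CPM in CIA, against 112 and 285 CPM in sham. On the regular diet it was 34.3, 57.9 and 36.1 CPM in CIA, against 51.5, 50.5 and 1233 CPM in sham. All 14 tested markers were below 0 in CIA on both diets, with medians of -2.90 (high-fat) and -4.09 (regular). At an unadjusted p under 0.05, 3 were lower on the high-fat diet and 12 on the regular diet. After adjustment 0 were called in any of these comparisons. With the mean muscle marker level as a covariate, 0 of the 51 genes and 5 of all genes were called in the high-fat CIA comparison. The median log2 fold change of the 51 was -1.05 in that fit. The part of muscle in the pathway result was not tested. The 6 brown adipocyte markers and the 8 chondrocyte markers gave 0 calls on the high-fat diet. Of the brown adipocyte markers 4 were below 0 and 2 above 0 there. Ucp1, which defines brown fat, was between 1.08 and 7.34 CPM in all libraries. Cidea, also on that list, had 5.76, 59.1 and 11.2 CPM in high-fat CIA, against 53.1 and 76.6 CPM in high-fat sham. Its level was 301, 94.0 and 377 CPM in regular-diet CIA, against 312, 395 and 444 CPM in regular-diet sham.

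Other mitochondrial genes were lower too. Of 1729 tested genes outside the term with a mitochondrial annotation, 200 (11.6%) were called lower and 54 higher in high-fat CIA, with a median log2 fold change of -0.30. Of the 43 tested pathway genes with that annotation, 19 were called lower (44.2%), with a median of -1.07. Of the 8 without it, 1 was, with a median of -0.51. The 21 nuclear genes of oxidative phosphorylation gave 1 call, lower, with a median of -0.63. On the regular diet their median was -0.53.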

How the data were processed

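Per the labels' protocols, synovial RNA was isolated in Trizol and the library kit was the sequencing company's own; whether the kit marks strand is not given in the sources used here. The authors deposited 1 table of 18804 genes with expected counts per library, which are estimated counts that are not normalized, per the file headers; 11.98% were not whole at a tolerance of 0.001, and they were rounded. The authors also deposited TPM values (scaled for gene length and to the same total per library), log2 fold changes and q-values for 4 comparisons, per the file headers. RSEM 1.2.12, Bowtie2 2.2.5, GRCm38.p6 and DESeq2 1.4.5 appear in the submitters' processing notes, with no roles. Only 1.77% of the table's gene starts equal those of GRCm38.p6, so no position from the table is printed.

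Genes passing edgeR's filterByExpr (14892) were scaled with TMM and fitted with glmQLFit (robust) with 1 mean per group over all 11 libraries, since high-fat sham has 2. The call threshold was 0.05 on p-values adjusted by the Benjamini-Hochberg method. In brackets after a gene, log2 fold changes stand with ± SE, computed as the size of the change over the root of the F statistic. Log2 CPM used a prior count of 2. Software was edgeR 4.0.16 and DESeq2 1.42.0 in R 4.3.3, with limma 3.58.1, and matplotlib 3.10.9 and pandas 2.3.3 in Python 3.11.15. The fit was also run on simulated data in which 200 genes had a log2 change of 2 either way. Those data held no outlying library, so they do not bear on calls that depend on single libraries.

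The genes, lists, tests and naming rule were chosen with earlier results of these data known. By that rule per-library values are given for 21 set genes of the pathway and for up to 8 other called members with the largest changes, and helper genes are named where called. The 4 members Il4i1b, Hmgcll1, Lao1 and 4930438A08Rik were given no role. Nothing says that libraries of a group came from separate mice, so p-values measure the spread between these libraries, which may be technical. Alternatives were DESeq2, RLE scaling, other filters on low counts, the replicate letter as a block, adipocyte or muscle marker covariates, a fit without the groups not compared, and fits that drop 1 library. A pair of pathway genes enter the counts and medians but are not reported here by themselves.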

Additional observations from a re-analysis of the deposited data

How the results depend on the processing

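Counts of called pathway genes are given with the count over all genes of the same fit in brackets. CIA against sham on the high-fat diet, 20 (1610), gave 17 (1573) with RLE scaling, 16 (1282) without a filter on low counts, 20 (1649) when genes needed a CPM of at least 1 in 3 libraries and 30 (3327) with DESeq2. It gave 10 (479) with only the groups compared, 0 (1345) with the adipocyte list mean as a covariate and 0 (5) with the skeletal muscle list mean. Leaving out each library gave 0 to 33 (0 to 3734). High-fat against regular diet in CIA, 14 (588), gave 11 (523), 10 (420), 16 (665) and 33 (2006) in the first 4 of these settings. It gave 0 (0) with only the groups compared and with the muscle covariate, 1 (219), a higher one, with the adipocyte covariate, and 0 to 39 (0 to 3221) on leaving out each library. The regular-diet count of 0 (4) became 4 (837) with DESeq2, and the sham diet count of 0 (0) became 9 (418) with only the groups compared. The interaction count was 0 in every setting run, with 21 over all genes with DESeq2 and 0 in the other settings.

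The median log2 fold change moved beyond the spread between libraries of a group, 0.35, with the adipocyte covariate: to -0.19 for CIA on the high-fat diet, -0.29 for diet in CIA and -0.0075 for the interaction. Leaving out each library gave -1.09 to -0.91 for CIA on the high-fat diet, -0.71 to -0.11 on the regular diet, -1.32 to -0.82 for diet in CIA, -0.49 to -0.33 for diet in sham and -0.87 to -0.34 for the interaction. The cause of these shifts was not tested.

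Of the 34 single-gene calls, 34 held with DESeq2, 28 with RLE scaling, 26 without a filter, 6 with only the groups compared, and 0 with either covariate; none changed sign. Correlations of same-letter deviations from the group means ranged from -0.43 to 0.46. Deviations within groups of 2 or 3 libraries are tied to each other, so these values cannot decide whether the replicate letters pair libraries. With the replicate letter as a block, the counts were 8 (776), 0 (5), 0 (0), 0 (0) and 0 (0) and the medians -1.10, -0.41, -1.05, -0.37 and -0.68, for CIA on the high-fat diet, CIA on the regular diet, diet in CIA, diet in sham and the interaction. The number of libraries per group, 2 in high-fat sham and 3 in the others, limits the precision, and the part of depth was not tested.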
